A study of Mus musculus with 4 samples.

Results

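The urea cycle genes described here are the cycle's enzymes, the enzyme that makes its cofactor, the mitochondrial carriers that feed it, and the dehydrogenase that can release ammonium for it: Cps1, Otc, Ass1, Asl, Arg1, Arg2, Nags, Slc25a13, Slc25a15 and Glud1. They were taken by name, not by their values, as all probes carrying those gene symbols. All 10 genes were found, with 14 of the 41174 probes on the array, and all 10 are among the 16450 genes that could be tested. The cells were C57BL/6 mouse induced hepatocyte-like (iHep) cells, derived, per the labels, from cells named MDFs. They were grown in 2D or in 3D culture in 2 independent experiments, iHep-1 and iHep-2, with 1 array for each culture of each experiment. The question was which steps of the cycle were measured already in 2D, and how the 3D cultures compared with it. The titles of both 2D samples carry a plus sign that the 3D titles lack. No label says what it stands for, and whatever it marks cannot be told apart from culture.

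The urea cycle turns toxic ammonium into urea for excretion, and the complete cycle runs in the liver's hepatocytes. Its opening steps lie in the mitochondrion, where CPS1, switched on by N-acetylglutamate, makes carbamoyl phosphate and OTC joins it to ornithine to give citrulline. In the cytosol ASS1 joins citrulline to aspartate, ASL splits the product into arginine and fumarate, and arginase 1 releases urea and returns ornithine. SLC25A15 exchanges ornithine and citrulline across the mitochondrial inner membrane, and SLC25A13 exports the aspartate.

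Each value comes from probes of 60 bases, so what was measured is the transcript that holds that stretch. Probes of Otc and Arg1 are shown for their distance between cultures, those of Ass1 and Arg2 for their opposite directions in the experiments, that of Asl for its likeness in them, and that of Nags for its distance between experiments. The other probes, those of Cps1 and the carriers among them, are given by position only, since whether they lie in a UTR was not known. Capitals in the Ass1 probe mark the 20 bases that the other Ass1 probe also holds, so that pair is not an independent measurement. The Otc, Ass1 and Asl probes shown cover 23648, 1640 and 586 bases of the genome, more than their own length, and therefore cross an intron. Sequences and positions (mouse build mm9) are those in the array files, and exon or UTR annotation on that build was not used here.
Otc, chrX:9853843-9877490: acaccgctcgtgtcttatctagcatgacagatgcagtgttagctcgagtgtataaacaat
Ass1, chr2:31374279-31375918: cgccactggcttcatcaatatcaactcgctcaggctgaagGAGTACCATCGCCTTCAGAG
Asl, chr5:130487964-130488549: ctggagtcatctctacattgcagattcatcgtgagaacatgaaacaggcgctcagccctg
Arg1, chr10:24636194-24636253: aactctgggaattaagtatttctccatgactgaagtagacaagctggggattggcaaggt
Arg2, chr12:80252972-80253031: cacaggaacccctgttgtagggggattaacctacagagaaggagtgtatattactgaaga
Nags, chr11:102009515-102009574: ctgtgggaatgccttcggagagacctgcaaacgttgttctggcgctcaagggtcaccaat

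On the 4 arrays 23061 to 24411 probes were well above background, the scanner software's own detection flag, and 0 spots were saturated. The number of arrays, 2 per culture, limits the precision. The hepatocyte markers were bright throughout: 7 of 7 on the array were well above background everywhere, with a summed signal of 1059620 to 1309760. Differences are given in log2 units, 3D minus 2D, after each array was divided by its 75th percentile, and are therefore relative to the other genes of the array. Scaling to the spike-in controls instead put the median of all genes at -1.08 and changed directions, which are named below for the urea cycle genes. In these bulk samples, fewer cells of a type and less RNA per cell cannot be told apart.

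Every step of the cycle had a signal in 2D. All 10 genes were well above background on both 2D arrays, as were 93.0% of all tested genes. Tested genes had been kept for that flag on 2 or more of the 4 arrays, so the comparison with them says little. Of all 27975 gene names on the array, 15301 had their brightest kept probe well above background on both 2D arrays. Their brightness ranged widely against the lowest signal that the software called well above background on the same array, which is used here as a detection floor. For Ass1, Asl, Slc25a13 and Glud1 the 2D signal was over 100 times the floor in both experiments. For Arg1, Arg2 and Slc25a15 it was under 10 times the floor in both. The remaining genes, Cps1, Otc and Nags, depended on the experiment, at 73.5 and 640 times the floor for Cps1, 5.24 and 25.2 for Otc, and 297 and 16.3 for Nags in iHep-1 and iHep-2. Multiples of different genes belong to different probes and do not rank the transcripts against each other. Across all 4 arrays, 12 of the 14 probes and 9 of the 10 genes were well above background, beside 14585 of the 16450 tested genes.

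**Figure D1:**
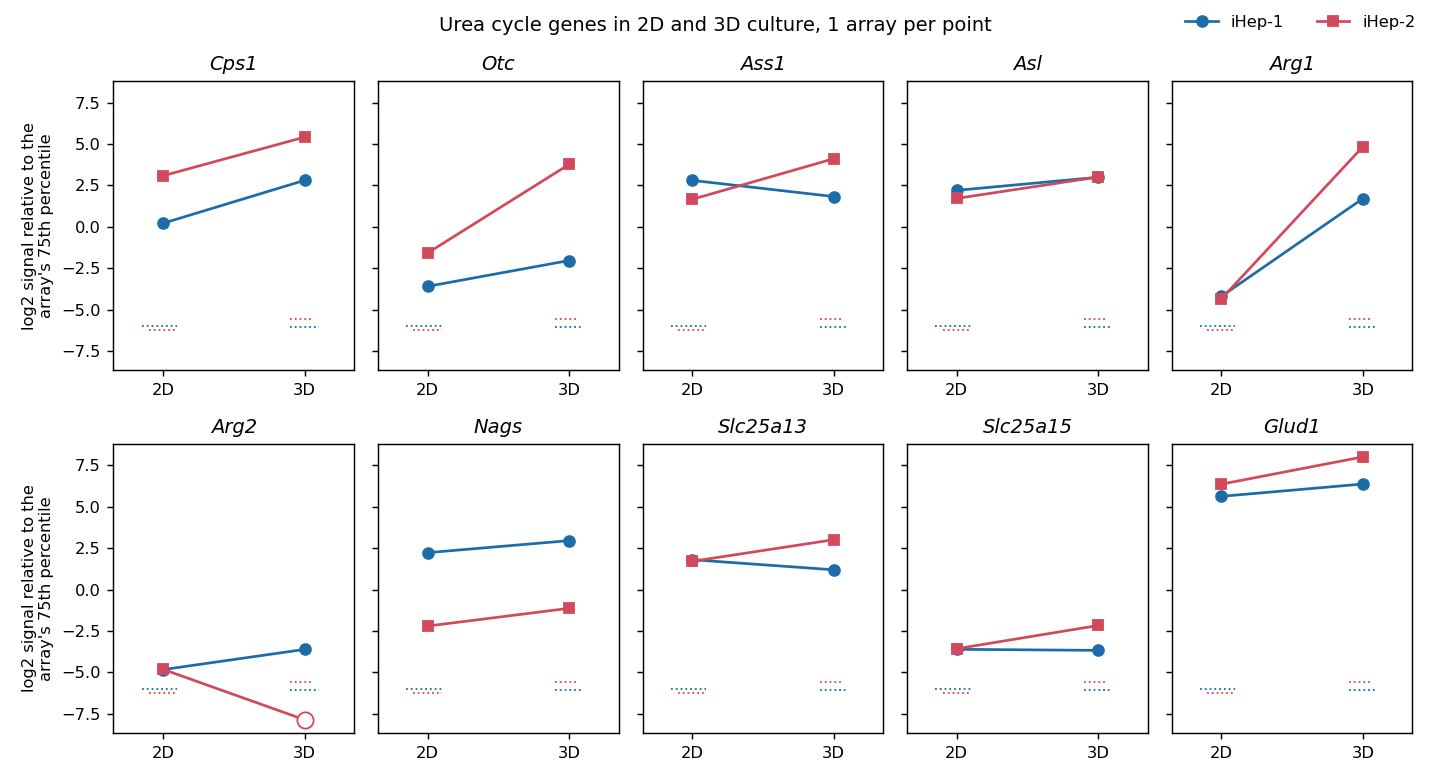
Normalised signal of the 10 urea cycle genes in 2D and 3D culture, in log2 units relative to the array's 75th percentile (y axis), 1 array per point, with lines joining the arrays of iHep-1 (blue circles) and of iHep-2 (red squares). Dotted marks are each array's detection floor, the open point is not well above background, and heights are to be compared within a panel only. Arg1 starts near the floor in 2D and is far above it in 3D in both experiments. The lines of Ass1, Arg2, Slc25a13 and Slc25a15 run in opposite directions, that of Slc25a15 in iHep-1 being nearly flat.

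No urea cycle gene passed the test of 3D against 2D. By limma with Benjamini-Hochberg adjustment, 0 of the 10 genes and 0% of all 16450 genes were called at 0.05, with a smallest adjusted p of 0.495 over all genes. Without adjustment, 1160 genes had a p under 0.05. With the experiment as a block, 0 genes were called and 2175 had an unadjusted p under 0.05, and with the block, an intensity trend and a robust prior 19 genes were called, none of them a urea cycle gene. The fold changes below are therefore descriptions of 2 experiments, and the adjusted p-values given with them are from limma without the block unless stated.

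The first enzyme, Cps1 (chr1:67277466-67277525), fixes ammonium as carbamoyl phosphate. Its signal in iHep-1 was 608 intensity units in 2D and 4168 in 3D, and in iHep-2 it was 5233 in 2D and 17082 in 3D. It was brighter in 3D within each experiment, but the cultures overlapped, because the 2D array of iHep-2 was above the 3D array of iHep-1. The normalised difference was 2.59 in iHep-1 and 2.33 in iHep-2, or 6.04-fold and 5.04-fold, and these values were close to each other. The mean difference was 2.46 (SE 1.46, adjusted p = 0.723), and with the experiment as a block its SE was 0.23 and its adjusted p 0.199. Leaving out 1 array at a time moved the mean between 1.03 (without 2D of iHep-1) and 3.90 (without 2D of iHep-2), since it then mixes the experiments. It was 1.16 without 3D of iHep-2 and 3.77 without 3D of iHep-1.

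Otc, the mitochondrial enzyme that makes citrulline, had 3 probes. In iHep-1 the brightest (chrX:9897267-9897326) read 43.3 in 2D and 145 in 3D, and in iHep-2 206 in 2D and 5466 in 3D. The probe across the intron shown above read 17.7 and 58.1 in iHep-1 and 92.3 and 2171 in iHep-2. Both probes placed the 4 arrays in the same order and set the 3D array of iHep-2 far above the others. The normalised difference by the brightest probe was 1.56 in iHep-1 and 5.36 in iHep-2, that is 2.95-fold and 41.0-fold, and by the intron-crossing probe 1.53 and 5.18. The iHep-1 value was 0.78 with normexp background correction and -0.11 with spike-in scaling, where its direction turned. The mean was 3.46 (SE 2.31, adjusted p = 0.736). The cultures overlapped, with 2D of iHep-2 above 3D of iHep-1. Without 3D of iHep-2 the mean was 0.56, and without 3D of iHep-1 it was 6.37. The third Otc probe (chrX:9893244-9893303) was well above background on the 3D array of iHep-2 alone, at 32.3, against 1.71 to 4.59 on the other arrays.

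Ass1, which joins citrulline to aspartate, was bright on every array. In iHep-1 it read 3669 in 2D and 2112 in 3D, and in iHep-2 1946 in 2D and 6921 in 3D. Thus 3D was below 2D in iHep-1 and above it in iHep-2, and the 2 lowest arrays, 3D of iHep-1 and 2D of iHep-2, lay within the software's errors of 211 and 195 units. The normalised differences were -0.98 and 2.46, with a mean of 0.74 (SE 0.98, adjusted p = 0.858). The other Ass1 probe (chr2:31375899-31375957) gave -0.96 and 2.39. The mean was -0.40 without 3D of iHep-2 and 1.88 without 3D of iHep-1, 0.17 without 2D of iHep-2 and 1.31 without 2D of iHep-1. With spike-in scaling it was -0.36.

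Asl, which splits argininosuccinate into arginine and fumarate, was bright on every array and lay close together in the experiments. In iHep-1 its signal was 2416 in 2D and 4746 in 3D, and in iHep-2 2026 in 2D and 3217 in 3D. After scaling, both 3D arrays were above both 2D arrays, at 3.00 and 3.01 against 2.20 and 1.72. The differences were 0.79 and 1.29, or 1.73-fold and 2.45-fold, with a mean of 1.04 (SE 0.27, adjusted p = 0.684). With spike-in scaling they were -0.88 and 0.77 and the mean was -0.056, so the direction depends on the scaling.

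Arg1, the cytosolic arginase that releases urea, stood furthest apart between cultures of the 10 genes. In iHep-1 its signal was 28.5 in 2D and 1944 in 3D, and in iHep-2 30.1 in 2D and 11443 in 3D. The 2D arrays did not differ beyond the software's errors of 3.45 and 3.54 units and were 3.44 and 3.68 times the detection floor, while the 3D arrays were 218 and 1352 times the floor. The cultures did not overlap. The normalised difference was 5.91 in iHep-1 and 9.20 in iHep-2, which is 60.2-fold and 588-fold. The mean of 7.56 (SE 1.19, adjusted p = 0.684) did not pass the test, and the adjusted p was 0.227 with the experiment as a block. Normexp background correction, which here adds an offset of 50 to every signal, gave 5.89. Leaving out 1 array at a time gave 5.99 to 9.12. Only spike-in scaling put it past the threshold, at 6.46 (adjusted p = 5.94e-08), in a fit whose estimate of the spread was shared fully across genes.

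Arg2, the mitochondrial arginase that is found in many tissues outside the urea cycle, was dim on every array. In iHep-1 it read 18.3 in 2D and 48.4 in 3D. In iHep-2 it read 21.8 in 2D and 1.71 in 3D, where it was not well above background. The 2D arrays were alike at 2.22 and 2.67 times the floor, and the 3D arrays lay on either side of them. In iHep-1 the difference was 1.22. In iHep-2 only a bound holds, because 3D was not measured above background: against that array's detection floor, 3D was at least 1.67-fold lower than 2D. With the dim signal taken at its recorded value the iHep-2 difference was -3.05 and the mean -0.91 (SE 1.60, adjusted p = 0.899), and with the floor in its place the mean was 0.24. The mean was 1.21 without 3D of iHep-2, -3.04 without 3D of iHep-1 and 0.18 with normexp background correction, so its sign is not settled. In iHep-1 both arginases were higher in 3D, whereas on 3D of iHep-2 Arg1 had its highest signal and Arg2 was not well above background. With spike-in scaling the iHep-1 difference of Arg2 was -0.45.

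Nags makes N-acetylglutamate, the activator without which CPS1 is inactive. In iHep-1 its brighter probe (chr11:102010718-102010776) read 2455 in 2D and 4612 in 3D, and in iHep-2 134 in 2D and 182 in 3D. The other probe, shown above, read 528 and 984 in iHep-1 and 28.1 and 46.8 in iHep-2. By both probes the experiments did not overlap, and iHep-2 was lower in either culture. By the brighter probe iHep-2 was 21.6-fold lower in 2D (-4.43) and 17.0-fold lower in 3D (-4.09), and the other probe gave -4.46 and -3.82. Within each experiment 3D was the higher, by 0.73 in iHep-1 and 1.07 in iHep-2 (mean 0.90, SE 2.26, adjusted p = 0.929), and with the block the SE was 0.24 and the adjusted p 0.351. Without 3D of iHep-1 the mean was -1.14, without 2D of iHep-2 -1.32, without 3D of iHep-2 2.95 and without 2D of iHep-1 3.12. These means mix the experiments, as for Cps1, and do not alter the differences within each experiment. With spike-in scaling the differences were -0.94 and 0.54 and the mean -0.20.

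Cps1 and Nags, an enzyme and the maker of its activator, thus lay in opposite order between experiments. Cps1 was higher in iHep-2 by 2.87 in 2D and 2.61 in 3D. Nags was lower there in both cultures.

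From their lowest to their highest array after scaling, the carriers varied less than the other genes except Asl. Slc25a13, the aspartate and glutamate exchanger (chr6:5991482-5991541), read 1829 and 1358 in 2D and 3D of iHep-1, and 2009 and 3213 in those of iHep-2. Its differences were -0.61 and 1.31, with a mean of 0.35 (SE 0.71, adjusted p = 0.915), and the mean was -0.56 without 3D of iHep-2, 1.26 without 3D of iHep-1 and -0.75 with spike-in scaling. Its 2D values were nearly equal after scaling, at 1.80 and 1.70. Slc25a15, the ornithine carrier (chr8:23487872-23487931), was dim, at 42.9 and 46.5 in 2D and 3D of iHep-1, and 51.7 and 88.6 in those of iHep-2. After scaling, 3 of the 4 arrays lay between -3.68 and -3.58 and 3D of iHep-2 stood above them at -2.17. Its differences were -0.06 and 1.41, with a mean of 0.67 (SE 0.60, adjusted p = 0.786). The mean was -0.081 without 3D of iHep-2, 1.42 without 3D of iHep-1 and -0.43 with spike-in scaling. For both carriers the array furthest from the rest was thus 3D of iHep-2.

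Glud1, the glutamate dehydrogenase of the mitochondrial matrix (chr14:35157919-35157978), was 3140 and 6215 times the floor in 2D of iHep-1 and iHep-2. In iHep-1 it read 25976 in 2D and 49293 in 3D, and in iHep-2 50795.5 in 2D and 103134 in 3D. After scaling, both 3D arrays were above both 2D arrays, though 3D of iHep-1 (6.37) and 2D of iHep-2 (6.36) were all but equal. The differences were 0.74 and 1.65, or 1.67-fold and 3.14-fold, with a mean of 1.20 (SE 0.70, adjusted p = 0.723). The mean was 0.38 without 3D of iHep-2, 2.02 without 3D of iHep-1, and 0.097 with spike-in scaling, where the iHep-1 difference was -0.93.

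**Figure D2:**
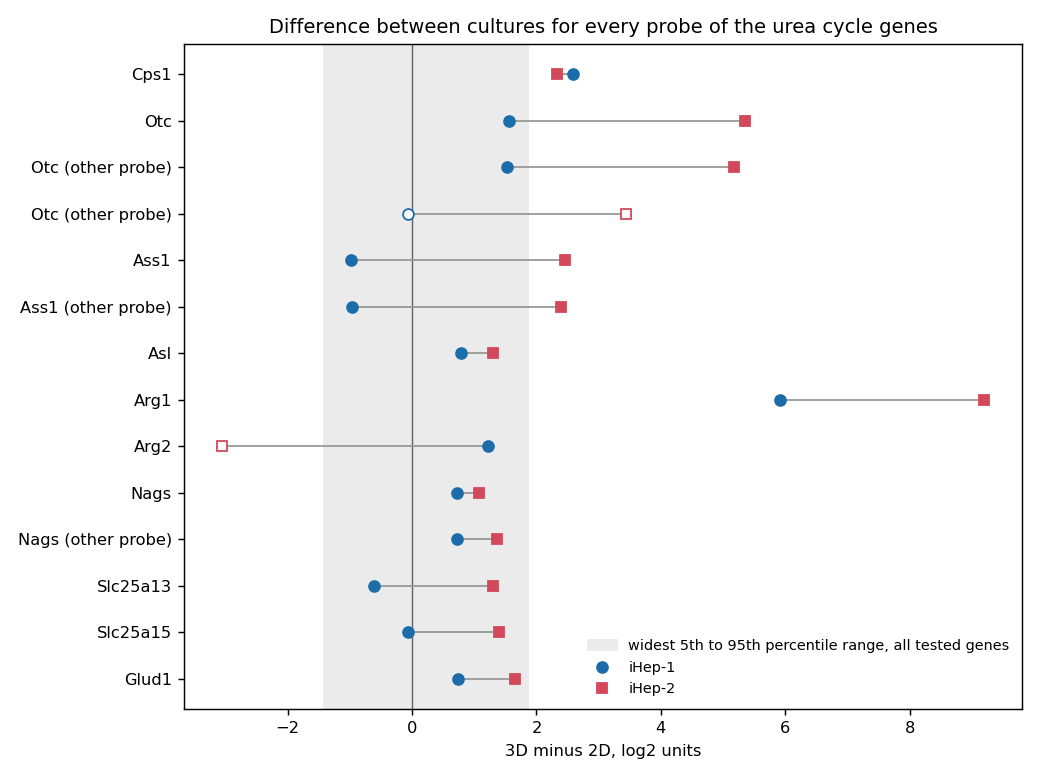
Difference of 3D from 2D in log2 units (x axis) for each probe of the 10 urea cycle genes, with iHep-1 (blue circles) and iHep-2 (red squares) as separate points, open where the probe was not well above background in at least 1 culture. The grey band is the wider of the experiments' 5th to 95th percentile ranges over all tested genes. Probes of the same gene lie close together for Otc, Ass1 and Nags, apart from the dim Otc probe, and the spread between experiments exceeds the spread between such probes for Otc and Ass1.

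Counted together, 6 of the 10 genes were higher in 3D in both experiments (Cps1, Otc, Asl, Arg1, Nags and Glud1), beside 33.3% of all tested genes. None was lower in both, beside 32.8%, and 4 went opposite ways (Ass1, Arg2, Slc25a13 and Slc25a15), beside 33.8%. Of those, Slc25a15 differed by only -0.06 in iHep-1. These counts depend on the scaling: with spike-ins 2 genes were higher in both (Cps1 and Arg1), beside 2.83% of all tested genes, 1 was lower in both (Arg2), beside 73.5%, and 7 went opposite ways, beside 23.7%. At least 2-fold higher in both were 3 genes (Cps1, Otc and Arg1), beside 4.26% of all tested genes, and 0 were at least 2-fold lower in both, beside 2.12%. The count of 3, beside 701 of all 16450 genes, was 2 with normexp background correction, beside 329, where Otc dropped out. With spike-in scaling it was 1, beside 168, where Arg1 alone remained. In 3 genes (Asl, Arg1 and Glud1) both 3D arrays were above both 2D arrays, beside 20.0% of all tested genes, and in 0 below, beside 21.5%. The median difference was 0.77 in iHep-1 and 1.53 in iHep-2 over these genes, against -0.020 and 0.042 over all genes. With spike-in scaling the median of the mean differences was -0.13 instead of 0.97, against -1.08 and 0.021 over all genes.

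The experiments differed in size as well as direction. In iHep-1, 7 of the 10 genes were higher in 3D, beside 48.1% of all genes, and 4 at least 2-fold so, beside 7.81%. In iHep-2, 9 were higher, beside 52.4%, and all 9 at least 2-fold so, beside 12.7%. With spike-in scaling 2 were higher in iHep-1, beside 3.58% of all genes, and 1 of them at least 2-fold, beside 1.39%. In iHep-2 it left 9 higher, beside 25.8%, and 5 of them at least 2-fold, beside 6.91%. The difference was larger in size in iHep-2 for 9 of the 10 genes, the exception being Cps1, and for 65.4% of all genes. Among the 9 is Arg2, for which the bound in iHep-2 does not show this. With spike-in scaling it was larger in iHep-2 for 5 genes (Cps1, Otc, Arg1, Arg2 and Glud1) and for 13.2% of all genes. The 75th percentile used for scaling shifted by 0.18 between cultures in iHep-1 and by -0.63 in iHep-2, while the spike-in signal shifted by 1.85 and -0.10. The counts with spike-in scaling give the size of that choice.

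**Figure D3:**
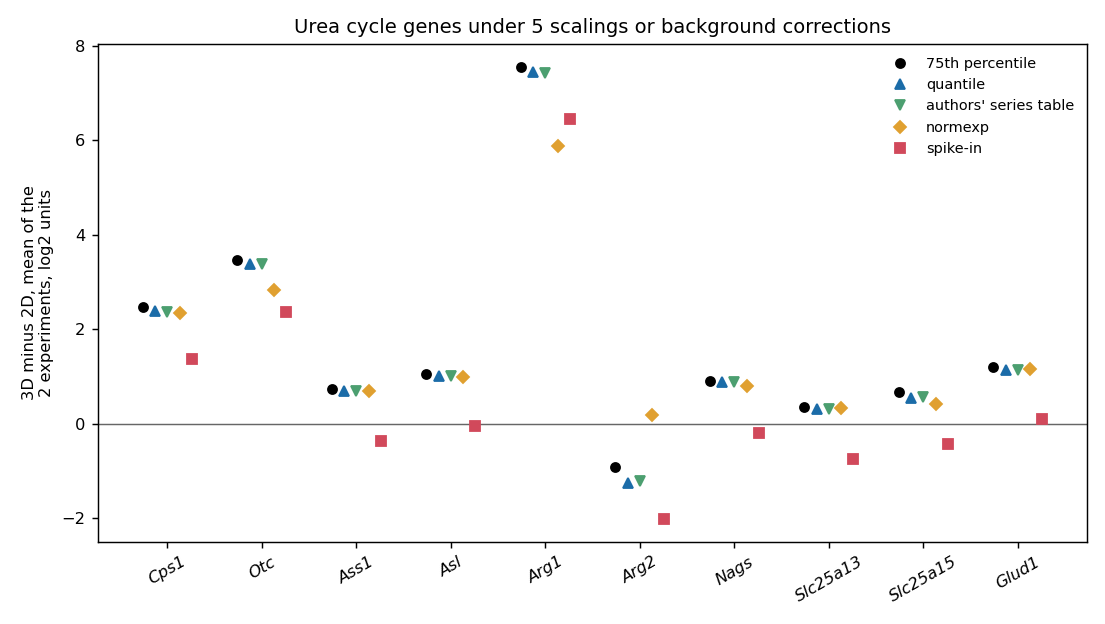
Mean difference of 3D from 2D in log2 units (y axis) for each urea cycle gene under the scalings and background corrections tried. Spike-in scaling moves every gene lower by the same amount, which leaves Cps1, Otc, Arg1 and Glud1 above 0, while normexp moves mainly the dim genes, Arg1, Otc and Arg2.

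For 6 of the 10 genes (Cps1, Otc, Arg2, Nags, Slc25a13 and Slc25a15) the mean difference between experiments was larger than that between cultures, as it was for 49.6% of all tested genes. Cps1 and Otc were at least 2-fold higher in iHep-2 in both cultures, beside 5.12% of all tested genes, and Nags at least 2-fold lower, beside 5.73%. Otc was higher in iHep-2 by 2.02 in 2D and 5.81 in 3D. Several genes were alike in 2D and apart only in 3D: Arg1 differed by -0.15 in 2D and 3.13 in 3D, Slc25a13 by -0.10 and 1.82, and Slc25a15 by 0.04 and 1.51. Arg2 differed by 0.02 in 2D and was at least 3.84-fold lower in 3D of iHep-2, where it was not well above background. Asl was the reverse, at -0.49 in 2D and 0.01 in 3D. Ass1 had opposite orders, at -1.15 in 2D and 2.29 in 3D. With 1 array per experiment and culture, these differences have no replicate and no test.

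**Figure D4:**
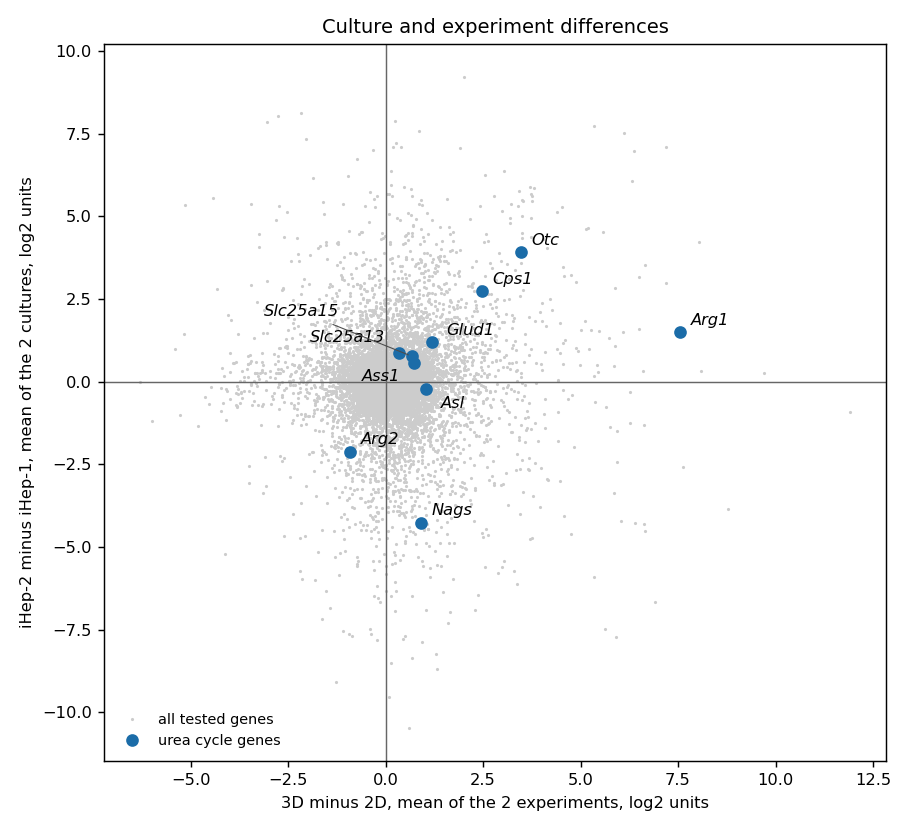
For every tested gene (grey) and the 10 urea cycle genes (blue), the mean difference of 3D from 2D (x axis) against the mean difference of iHep-2 from iHep-1 (y axis), both in log2 units. Arg1 lies far out along the culture axis, Nags along the experiment axis, and Otc and Cps1 along both.

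The genes around the cycle were read as 4 lists, and 0 genes of any of them passed limma. Their counts stand beside those of all tested genes, of which 33.3% were higher and 32.8% lower in both experiments and 33.8% went opposite ways. At least 2-fold higher in both were 4.26%, and at least 2-fold lower 2.12%. The lists were not tested as sets. Nitrogen entry and glutamine had 11 of 13 genes tested, of which 6 were higher and 3 lower in both experiments, with 2 at least 2-fold higher in both. Those 2 were Glul, the glutamine synthetase that takes up ammonium escaping the cycle (1.14 and 1.53, adjusted p = 0.708), and Gpt, the alanine aminotransferase (1.49 and 2.55). Spike-in scaling took the iHep-1 difference of Otc from 1.56 to -0.11 and shifts all genes of an experiment alike. Smaller rises in iHep-1 in this and the other lists, those of Glul and Gpt among them, therefore turned with it. The glutamine importer Slc1a5 was lower (-0.65 and -2.44), and Gls2, which releases ammonium from glutamine in liver, differed by 0.18 and 0.83. Car5b, a mitochondrial carbonic anhydrase that supplies bicarbonate, differed by 0.60 and 2.71, and Car5a was not tested because its probe was not well above background on any array.

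The aspartate, malate and fumarate arm, which returns the fumarate made by ASL towards aspartate, had no gene at least 2-fold apart in the same direction in both experiments. All 8 of its genes were tested, 2 higher and 2 lower in both experiments, and 4 in opposite directions. Those 4 include Slc25a22, a glutamate carrier, at -0.32 and 1.67, and Got2, the mitochondrial aspartate aminotransferase, at -0.17 and 1.18, both named after their values were seen. Mdh1 and Mdh2, the malate dehydrogenases, differed by 0.27 and 0.78 and by 0.31 and 0.24. Got1, the cytosolic aspartate aminotransferase, differed by -0.17 and -0.82, and Slc25a12, the other aspartate and glutamate carrier, by -0.19 and -0.08.

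Arginine and ornithine side branches had 19 of 22 genes tested, with 5 higher and 9 lower in both experiments. Slc7a1, the widely expressed arginine importer, was the only gene at least 2-fold lower in both (-1.55 and -1.92). The makers of proline and ornithine from glutamate were also lower, Pycr1 by -2.22 and -0.80 and Aldh18a1 by -1.68 and -0.39. Oat, which turns ornithine into glutamate semialdehyde, differed by 0.23 and -0.19, the arginine importer Slc7a2 by -0.28 and -0.26, and the second ornithine carrier Slc25a2 by 0.87 and 1.19. The list's medians were -0.17 and -0.19, beside -0.020 and 0.042 over all genes.

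Of the regulators 13 of 14 were tested, 7 higher and 3 lower in both experiments. Gcgr, the receptor for glucagon, a hormone that raises urea cycle expression, was the only one at least 2-fold higher in both (2.01 and 2.78). Cebpa, a transcription factor of hepatocytes, differed by 0.18 and 1.55, and Sirt5, a mitochondrial deacylase that acts on CPS1, by 0.60 and 1.16. Hnf4a, a transcription factor of liver genes, differed by -0.80 and 0.23 by its brightest probe, but its other probes gave 2.59 and 1.72 and -0.03 and 1.91, so the probes disagree. With spike-in scaling the medians of the 4 lists were -0.33, -0.88, -1.12 and -0.87 in the order given, each negative, as that of all genes was.

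The genes whose 4 array values, centred on their own mean, lay nearest those of each enzyme were found among the other 16449 tested genes, by root mean square distance in log2 units. For Arg1 these were Cpb2 (0.535), Ces1f (0.739) and Penk (0.866), and for Otc Cyp2c29 (0.441), Itih1 (0.442) and Leap2 (0.560). For Cps1 they were a transcript that the files do not pair with a gene name, Xdh (0.237) and Masp2 (0.267). For Nags they were Sox2 (0.153), Nkx2-1 (0.158) and Slc1a1 (0.184), each of which was well above background on 2 of 4 arrays. With 4 arrays and this many genes, near profiles are a description only.

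Markers of other cell types also differed between the arrays, given here for 2D and 3D of iHep-1 and then 2D and 3D of iHep-2. Of 9 fibroblast markers 4, 6, 4 and 3 were well above background, with summed signals of 9050, 20114, 38705 and 8985 over the 4 that were tested. Most of that sum on each array was Vim (6398, 15703, 35692 and 5958 units). After scaling, Pdgfra (0.65 and 0.65) and Col1a2 (1.23 and 0.22) were higher in 3D in both experiments. Pdgfrb was lower in both (-1.07 and -3.33), and Vim went opposite ways (1.11 and -1.95). All 5 biliary markers were well above background on each array, with summed signals of 8399, 15046.5, 28811 and 11992. Of 5 macrophage markers, a cell type that can express arginase, 3 were well above background on each array, with summed signals of 805, 734, 157 and 38.3, and Ptprc, which marks all leukocytes, was on none. Most of that sum in iHep-1 was Lyz2 (780 and 651 units there, 73.9 and 10.3 in iHep-2). Cd68 read 21.6, 73.6, 22.9 and 15.4 and Csf1r 3.94, 9.97, 59.9 and 12.5, so before scaling both were brighter in 3D than in 2D in iHep-1, as Arg1 was, and dimmer in iHep-2. Csf1r was not well above background in 2D of iHep-1, and after scaling Cd68 differed by 0.06 in iHep-2. All 4 cycling-cell markers were at least 2-fold lower in 3D in both experiments, with summed signals of 1661, 574, 6404 and 162. Of 3 endothelial markers, 1 was well above background on each 2D array and 0 on each 3D array. The part of these markers in the urea cycle results was not tested.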

How the data were processed

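Total RNA was labelled with Cy3 and hybridised to 4 one-colour Agilent arrays, per the labels' protocols. The deposited files hold linear spot intensity values, a background-corrected processed signal with flags, from Agilent Feature Extraction (10.7.1.1 per the file headers, 9.5.1.1 per the submitters' processing notes). Per the file headers, all arrays lay on 1 slide in 1 scan. The authors' series table, deposited intensity values of the same arrays (medians of 26.3 on both arrays of iHep-1 and 22.6 on both of iHep-2), served as an alternative, and no source used here says how it was normalised.

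From the processed signal, log2 values were computed relative to the 75th percentile of noncontrol spots of the same array, without spots flagged as outliers (72 to 85 an array). Spots of a probe were averaged. Kept were probes that 2 or more of the 4 arrays measured well above background, and the brightest kept probe stood for its gene. Of 41174 probes, 24844 were named through accessions in a RefSeq table (GRCm38.p6, names only) and 7855 through symbols, and 8475 kept the file's name. Groups were compared two-sided by limma 3.58.1 in R 4.3.3 (lmFit, eBayes), with Benjamini-Hochberg adjustment. The software's error is that of a single spot. Without the block, p-values set the difference between cultures against the spread between the 2 experiments within each culture. With the block, they set it against how far apart the differences of the 2 experiments lie.

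Replicate numbers mark the experiment per the series' design text and pair the arrays. Arrays of 1 experiment deviated together from their culture's mean (r = 0.66 across 16450 genes). Named are all 10 urea cycle genes with every probe, up to 4 genes per direction and list with the largest shared difference, a few set genes, and the 3 nearest profiles per gene, of which those of Arg1, Otc, Cps1 and Nags are printed. Some genes that this rule takes are not reported here. The genes and lists were chosen with earlier results of these data known.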

Additional observations from a re-analysis of the deposited data

Results flagged for a closer look

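In 4 urea cycle genes, and in 2 of the few set genes of the neighbouring lists, the single arrays of iHep-1 and iHep-2 moved in opposite directions from 2D to 3D. In log2 units these differences were -0.98 in iHep-1 and 2.46 in iHep-2 for Ass1, 1.22 and -3.05 for Arg2, whose 3D signal in iHep-2 was not well above background and supports only a drop of at least 1.67-fold, -0.61 and 1.31 for Slc25a13, and -0.063 and 1.41 for Slc25a15. For Oat they were 0.23 and -0.19, and for Hnf4a -0.80 and 0.23 by its brightest probe. The Slc25a15 signals of iHep-1, 42.9 in 2D and 46.5 in 3D, differed by less than the software's errors of 4.60 and 4.98 units. With 1 array per culture and experiment the difference between the experiments was not tested. With spike-in scaling Arg2 was lower in both. Other genes of the neighbouring lists were not looked at here, and the 4 whole lists held 2, 4, 5 and 3 tested genes that went opposite ways. Of all tested genes 33.8% did so.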

How the results depend on the processing

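With 2 arrays per culture, limma without the block called 0 genes, and Arg1 at 60.2-fold and 588-fold did not pass either. Not passing it therefore says little about the size of a difference. Signals near background limit Arg1 in 2D and Arg2. Over 13 alternatives, 129 values of single urea cycle genes were computed: 116 kept their direction and side of the threshold, 12 reversed and 1, Arg1 with spike-in scaling (6.46), passed it. Cps1, Otc, Arg1 and Glud1 reversed in none. Spike-in scaling reversed Ass1 (-0.36), Asl (-0.056), Nags (-0.20), Slc25a13 (-0.75) and Slc25a15 (-0.43), and put the median of the urea cycle genes at -0.13. It left 1 of them at least 2-fold higher in both experiments, beside 168 of all 16450 genes, and called 291 genes (76 higher, 215 lower). It put the medians of the neighbouring lists at -0.33, -0.88, -1.12 and -0.87. By construction it moves all genes by the same amount. Normexp reversed Arg2 (0.18); the cause was not tested. Leaving out 1 array gave ranges of -1.32 to 3.12 for Nags, -0.40 to 1.88 for Ass1, -3.04 to 1.21 for Arg2, -0.56 to 1.26 for Slc25a13 and -0.081 to 1.42 for Slc25a15, with -1.14 for Nags without 3D of iHep-1. The median of the urea cycle genes then ranged from 0.74 to 1.65, and 0 genes were called each time. The array left alone in its culture is assumed to vary like the others. Fits with 1 array left out do not pair the arrays, so their means mix the experiments. A reversal in them need not be one within an experiment: for Nags 3D was higher within both (0.73 and 1.07).

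The replicate block called 0 genes and changed no call for a urea cycle gene. With an intensity trend and robust prior added it called 19 genes. The count of genes at least 2-fold apart in both experiments needs all 4 arrays and was not recomputed with the block or with arrays left out. Arg2 was not tested when probes had to be well above background on all 4 arrays. A block for the slide was not run, since 1 slide held all arrays. All 10 genes also passed the software's weaker flag for a signal above background on both 2D arrays.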
